A study of Mus musculus with 6 samples.

Results

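miR-1, miR-133a, miR-133a*, miR-133b and miR-206 are the microRNAs (miRNAs) long known as the muscle miRNAs, and they were followed here in the left ventricle of mice with and without a myosin mutation that causes hypertrophic cardiomyopathy, an inherited thickening of the heart muscle. The members were the 5 entries mmu-miR-1, mmu-miR-133a, mmu-miR-133a*, mmu-miR-133b and mmu-miR-206 among the 698 mature miRNAs listed, and each was present in the tables of both genotypes. The mutant group (R719W, n = 3) consisted of mice with the genotype mutant (aMHC719/+), that is, an allele with the R719W change in Myh6, the gene of α-myosin heavy chain, over a wild-type allele. The other group (WT, n = 3) was wild-type. Cyclosporin, which blocks calcineurin signalling in cardiomyocytes and T cells, had been given for 3 weeks to all 6 mice, WT included, so every comparison is between genotypes under cyclosporin. With age, sex and strain not given in the sources used here, their balance between the genotypes is unknown. Each library is a biological replicate by its label.

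A mature miRNA guides the silencing machinery to messenger RNAs that pair with its seed, bases 2 to 8, so miRNAs with a common seed can act on overlapping targets. miR-1 and miR-133a are cut from shared precursor transcripts in heart and skeletal muscle under the control of muscle transcription factors such as SRF and MEF2. In mouse hearts miR-1 is known to limit the growth and proliferation of cardiomyocytes, and miR-133a is known as a brake on hypertrophy and on fibrosis. miR-206 and miR-133b come from another precursor transcript, which is active in skeletal muscle.

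The 5 entries fall into 3 seed groups, and no other entry of the tables has one of these seeds. miR-1 and miR-206 share a seed and differ at 4 of 22 bases. miR-133a and miR-133b share a seed and differ at 1 of 22 bases. miR-133a*, the other arm of the miR-133a hairpin, has a seed of its own. RefSeq (GRCm38.p6) gave the mature sequence of 2 of the 5 members, shown here because each carries the seed of its group, 5′ to 3′ with the seed in capitals.
miR-206: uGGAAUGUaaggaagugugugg
miR-133b: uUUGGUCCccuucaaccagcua
Other muscle miRNAs are used below for comparison, with miR-208a and miR-499 as partners in the ratios tested. miR-208a and miR-208b, from introns of the myosin genes Myh6 and Myh7, and miR-499, from an intron of Myh7b, have other seeds.
miR-208a: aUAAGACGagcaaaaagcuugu
miR-208b: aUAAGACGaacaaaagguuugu
miR-499: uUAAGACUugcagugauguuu

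The hairpins of miR-206 at chr1:20679010-20679082 and of miR-133b at chr1:20682769-20682887 (GRCm38, plus strand) lie 3686 bases apart. In GENCODE M21 both overlap exons of the noncoding gene Gm28653. miR-1 and miR-133a can each come from more than 1 hairpin. A hairpin of miR-1 lies at chr2:180389048-180389124 and one of miR-133a at chr2:180398379-180398482 (GRCm38, plus strand), 9254 bases apart within the span of the noncoding gene Mir1a-1hg in RefSeq. The mature reads do not show from which hairpin of miR-1 or miR-133a they came. The tables also list miR-1-2-as, an entry for the strand opposite to a miR-1 hairpin, and it had 0 reads in all 6 libraries.

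Reads on listed miRNAs came to between 865845 and 1168379 in the R719W libraries and between 765425 and 1192020 in the WT libraries. A count of 0 therefore allowed up to 2.57 to 3.46 CPM (reads per 1000000 miRNA reads) in R719W libraries and 2.52 to 3.92 CPM in WT libraries, taking 3 reads as the limit. The R719W libraries had reads for 307 to 332 miRNAs each and the WT libraries for 286 to 298. The cardiomyocyte markers miR-208a, miR-208b and miR-499 together stood at 47148 to 89245 CPM in R719W and 88108 to 102935 CPM in WT. Of 2 neuronal markers, miR-124 was at 0 in all libraries and miR-9 stood at 7.74 to 10.4 CPM in R719W and 5.87 to 13.4 CPM in WT, and the liver marker miR-122 had at most 1 read in any library. Of the fibroblast markers, 4 of 4 rose in R719W by the edgeR test used below, beside 12.7% of all miRNAs tested. The count was 3 of 4 by DESeq2, with DESeq2 size factors, and without R719W replicate 3 or any single WT library. The summed level of the fibroblast markers was 1866 to 3389 CPM in R719W against 391 to 515 CPM in WT. The smooth muscle and endothelial markers had 0 of 2 called each, and the erythroid markers 0 of 3. Without R719W replicate 1, 1 of 2 endothelial and 2 of 3 erythroid markers were called lower in R719W, and without the filter on low counts 1 of 3 erythroid markers was. Among 6 leukocyte markers, 5 could be tested and 2 fell, beside 7.18% of all miRNAs tested. The count of leukocyte markers that fell was 3 without R719W replicate 1, and 0 without R719W replicate 3, WT replicate 1 or WT replicate 3. It was 1 with library totals alone, with a replicate block, without WT replicate 2, and with a filter of 100 reads in 3 libraries. The summed level of the leukocyte markers was nevertheless higher, at 1149 to 1341 CPM in R719W against 722 to 1079 CPM in WT. The part of these cell types in the muscle miRNA levels was not tested.

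miR-1 was the most abundant miRNA in each of the 6 libraries. mmu-miR-1 took 46.9%, 49.7% and 39.8% of the miRNA reads in R719W replicates 1, 2 and 3, and 51.3%, 47.3% and 55.1% in WT replicates 1, 2 and 3. The genotypes overlapped, since R719W replicate 2 lay above WT replicate 2. R719W replicates 1 and 3 lay below every WT library, replicate 1 only just (46.9% against 47.3%). Adding miR-206 left the share of this seed group at 45.5% ± 5.10 in R719W and 51.2% ± 3.91 in WT (SD, n = 3), a difference of −5.76 percentage points (exact permutation test, two-sided, p = 0.2, adjusted p = 0.3 over the shares of the 2 seed groups and of all members; 3 against 3 libraries allow no p below 0.1). The 5 members together took 45.5% ± 5.09 in R719W and 51.3% ± 3.91 in WT (SD, n = 3), so miR-1 carried nearly all of the reads of this set. For a lower share in a bulk sample, fewer cardiomyocytes, less miR-1 per cardiomyocyte and more reads of other miRNAs cannot be told apart.

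miR-133a was far less abundant in the reads. mmu-miR-133a had 172, 286 and 288 reads in R719W replicates 1, 2 and 3, and 211, 168 and 256 reads in WT replicates 1, 2 and 3. In CPM, which equals the authors' deposited normalised value, these were 167, 245 and 333 in R719W, against 258, 219 and 215 in WT. R719W replicate 1 was the lowest of the 6 and R719W replicate 3 the highest, so the WT libraries lay inside the range of the R719W libraries. In order of reads, miR-133a stood between places 73 and 79 in the R719W libraries and between places 65 and 73 in the WT libraries. The seed group of miR-133a and miR-133b took 0.0250% ± 0.00831 of the reads in R719W and 0.0232% ± 0.00241 in WT (SD, n = 3, exact permutation test, two-sided, p = 0.8).

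**Figure D1:**
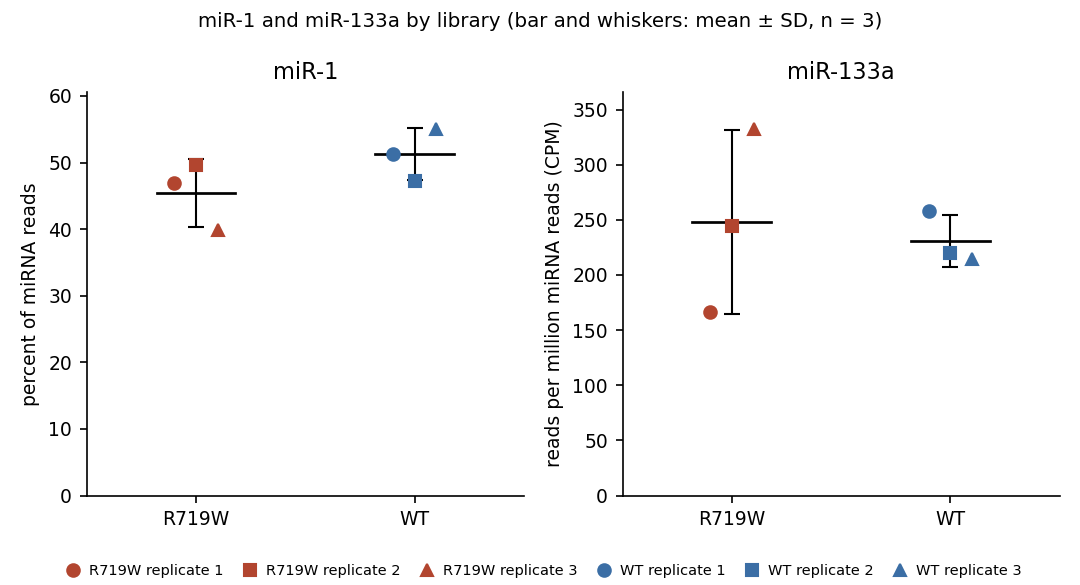
Share of miRNA reads taken by miR-1 (left, percent) and CPM of miR-133a (right) in each library, with R719W and WT side by side and the mean ± SD (n = 3) in black. For miR-1 the genotypes overlap between 47.3% and 49.7%, and for miR-133a the R719W libraries spread from 167 to 333 CPM around the WT libraries at 215 to 258 CPM.

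Both abundant members were compared between genotypes with edgeR's quasi-likelihood test, fitted on all 181 miRNAs with enough reads, with Benjamini-Hochberg adjustment over all of them. Counts were scaled by TMM, a method that sets libraries to a common level from the bulk of the miRNAs, so that a change in miR-1 itself moves the other levels less. Of the miRNAs tested, 19.9% were called at an adjusted p below 0.05 (12.7% higher and 7.18% lower in R719W), and 0 of the 2 members tested were called. In TMM-normalised levels the genotypes did not overlap for 40.9% of the miRNAs tested, and they overlapped for both members. miR-1 averaged 427963 ± 90103 TMM-normalised CPM in R719W and 558002 ± 111580 in WT (SD, n = 3), with 1 R719W library below every WT library. Its log2 fold change was −0.38 (SE 0.25, 95% interval −0.93 to 0.17, edgeR adjusted p = 0.247). miR-133a averaged 225 ± 48.4 TMM-normalised CPM in R719W and 250 ± 41.1 in WT (SD, n = 3). Its log2 fold change was −0.15 (SE 0.23, 95% interval −0.66 to 0.36, edgeR adjusted p = 0.616). The median log2 fold change of all tested miRNAs was 0.10. 23.2% of them lay below miR-1 and 38.1% below miR-133a. miR-499, for comparison, had a log2 fold change of −1.14 (SE 0.20, edgeR adjusted p = 0.00808, and 0.0558 without WT replicate 1 or 0.0669 without WT replicate 3). The lower end of the miR-1 interval, −0.93, lies short of that value in this fit. The 95% interval of miR-499, −1.58 to −0.69, overlaps that of miR-1, so the intervals do not separate the 2 fold changes. The miR-1 interval does not show that miR-1 was equal in the genotypes.

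**Figure D2:**
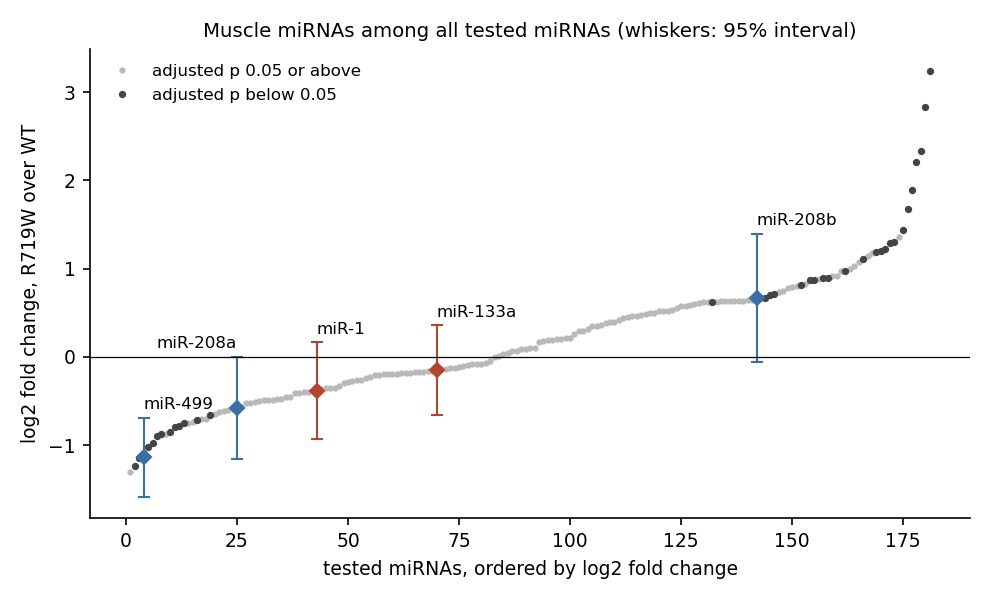
Log2 fold change (R719W over WT) of the 181 tested miRNAs in ascending order, with 95% intervals for miR-1 and miR-133a (red) and for the myosin intron miRNAs (blue), and dark points for adjusted p below 0.05. miR-1 at −0.38 and miR-133a at −0.15 lie inside the grey middle of the distribution, and miR-499 at −1.14 lies at its lower end.

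miR-1 kept a negative log2 fold change under each alternative scaling, tool, filter and set of libraries, between −0.55 and −0.17. The direction of miR-133a depended on the scaling. It was −0.26 when edgeR used DESeq2 size factors, −0.07 when totals excluded miR-1 and 0.10 when only totals were used, while these scalings moved the median of all tested miRNAs by −0.11, 0.06 and 0.21. Relative to these shifts, miR-133a stayed close to its TMM value. In none of these fits did miR-1 or miR-133a pass an adjusted p of 0.05 by edgeR or DESeq2. The unadjusted edgeR p of miR-1 was 0.151, and 0.0194 without R719W replicate 1 (log2 fold change −0.53, SE 0.21, edgeR adjusted p = 0.0592).

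**Figure D3:**
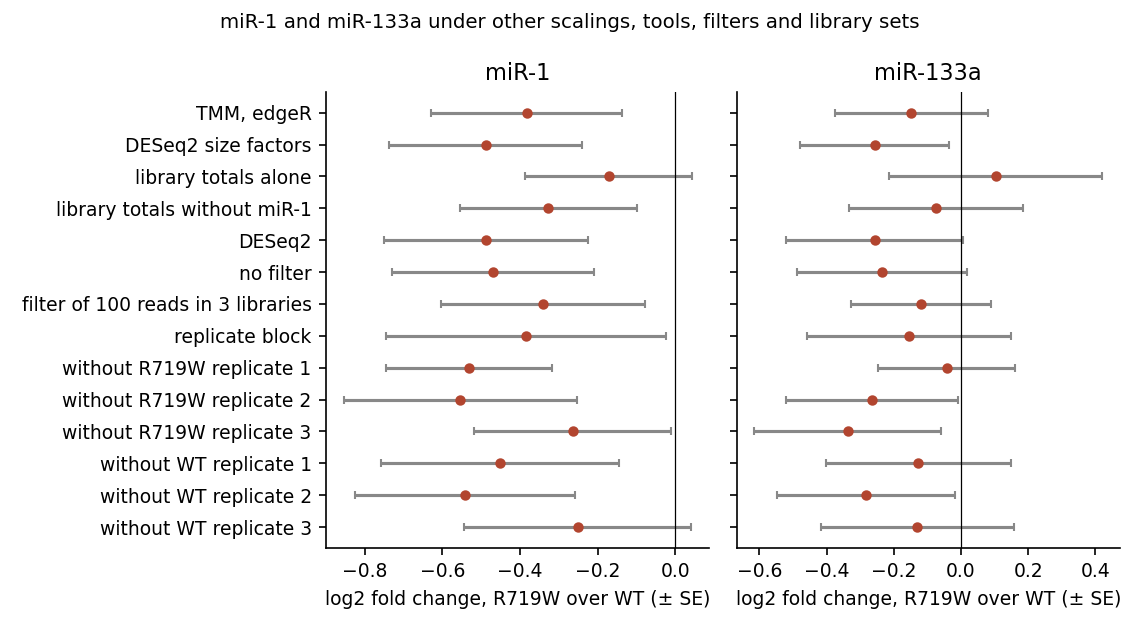
Log2 fold change (R719W over WT, points) with its standard error (bars) for miR-1 and miR-133a, 1 line per scaling, tool, filter or left-out library. All miR-1 points lie below 0, between −0.55 and −0.17, and the miR-133a point with library totals alone lies above 0, at 0.10.

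The spread between replicates was set beside that of all tested miRNAs. For TMM-normalised miR-1, the lowest and highest libraries were 325316 and 493991 CPM in R719W and 441486 and 663885 CPM in WT. The coefficient of variation of miR-1 was above that of 42.5% of the tested miRNAs in R719W and of 71.3% in WT. For miR-133a the highest library was 1.55-fold above the lowest in R719W and 1.39-fold in WT. The coefficient of variation of miR-133a was 21.5% in R719W and 16.4% in WT, beside medians over all tested miRNAs of 22.2% in R719W and 14.2% in WT. For miR-133a the counting error was smaller than this spread. The 172 reads of R719W replicate 1 have an exact Poisson 95% interval of 147 to 200 reads, and the 288 reads of R719W replicate 3 one of 256 to 323 reads.

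Because miR-1 and miR-133a share precursor transcripts, their ratio inside a library was followed as well, and such a ratio needs no scaling between libraries. Both are 22 bases long. There were 355, 493 and 836 miR-133a reads per 1000000 miR-1 reads in R719W replicates 1, 2 and 3, and 502, 464 and 390 in WT replicates 1, 2 and 3. R719W replicate 3 stood far above the other 5 libraries, with a counting interval of 742 to 938, and R719W replicate 1 stood lowest, at 304 to 412. The mean log2 ratio was −10.89 ± 0.62 in R719W and −11.12 ± 0.19 in WT (SD, n = 3), a difference of 0.23 (exact permutation test, two-sided, p = 0.8, adjusted p = 0.914 over the 8 ratios computed). The libraries thus held between 1197 and 2818 miR-1 reads per miR-133a read in R719W and between 1991 and 2565 in WT. Ligation and amplification differ between miRNA sequences, so these values are ratios of reads and not of molecules in the tissue.

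The other 3 members had between 0 and 6 reads per library, below the filter on low counts, and were described mainly by their reads. They were left out of the main edgeR fit. Their ratios to miR-1 or miR-133a were among the 8 ratios tested (exact permutation tests, adjusted p of 0.2 or above). For miR-206 over miR-1 the WT ratios are set by the 0.5 read added. mmu-miR-206, a skeletal muscle miRNA, had 5, 2 and 2 reads in R719W replicates 1, 2 and 3 and 0 reads in each WT library. In reads, every R719W library was thus above every WT library. In CPM, R719W replicates 2 and 3 stood at 1.71 and 2.31, below the 2.52 to 3.92 CPM that 0 reads allow in WT libraries. Pooled over libraries, miR-206 stood at 2.93 CPM in R719W. That is 2.71-fold the 1.08 CPM that a total of 0 reads allows in WT (3 reads over the group). This ratio leaves out the counting error of the 9 R719W reads and the spread between replicates. Per 1000000 reads of the seed pair, miR-206 took 6.38 in R719W (exact Clopper-Pearson 95% interval 2.92 to 12.1) and 0 in WT (upper limit 2.56 by the same method). The intervals cover counting error only, since reads are not independent molecules. The 9 reads stand beside 1409864 miR-1 reads in R719W, and the 0 reads beside 1438503 in WT. The rule by which reads resembling both miR-1 and miR-206 were assigned is unknown here, so the 9 reads cannot be told apart from misassigned ones.

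Other rare miRNAs had the same pattern as miR-206. Of 206 untested miRNAs with a read, 5 (2.43%) had reads in every R719W library and none in WT, and 0 had the reverse. Besides miR-206 these were miR-122, miR-127*, miR-214* and miR-666-5p, named after their values were seen, with 1 to 3 reads per R719W library. Of the same 206, 13.1% had every R719W library above every WT library and 0.971% the reverse. When edgeR was run without the filter, miR-206 had an unadjusted p of 0.00827 and an adjusted p of 0.0562 over 387 miRNAs, and was not called. The number of miRNAs with a read was also higher in each R719W library than in any WT library, and its part in the miR-206 reads was not tested.

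mmu-miR-133b, which comes from the same transcript as miR-206, had 0, 6 and 0 reads in R719W replicates 1, 2 and 3, and 1, 1 and 0 reads in WT replicates 1, 2 and 3. All of its R719W reads were in replicate 2, which had 2 reads of miR-206, while R719W replicate 1, with 5 reads of miR-206, had 0 of miR-133b. It made up 0.798% of the reads of the miR-133a and miR-133b pair in R719W (exact Clopper-Pearson 95% interval 0.293% to 1.73%) and 0.314% in WT (0.0380% to 1.13%). With 1 base between miR-133a and miR-133b, and the handling of mismatches unknown, these few reads are uncertain in origin.

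mmu-miR-133a*, the arm of the hairpin that is mostly discarded, had 1, 0 and 3 reads in R719W replicates 1, 2 and 3, and 1, 3 and 4 reads in WT replicates 1, 2 and 3. The genotypes overlapped. Together the 2 arms gave 0.533% of their reads to miR-133a* in R719W (exact Clopper-Pearson 95% interval 0.146% to 1.36%) and 1.24% in WT (0.539% to 2.44%). Without the filter, edgeR gave adjusted p = 0.372 for miR-133a* and 0.573 for miR-133b. Neither was called, and a p above the threshold does not show that they were equal in the genotypes.

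**Figure D4:**
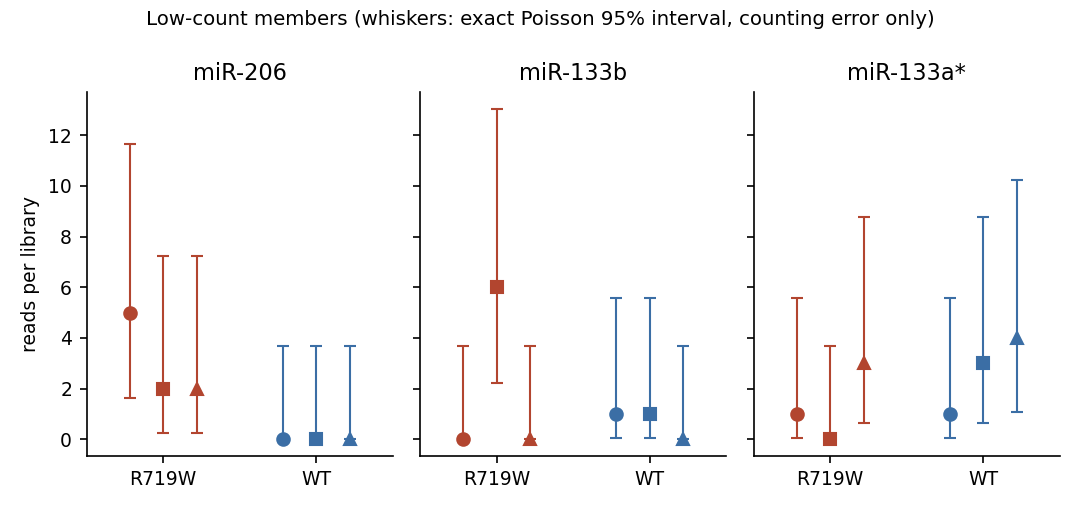
Reads per library of miR-206, miR-133b and miR-133a* with exact Poisson 95% intervals, R719W left of WT in each panel, circles, squares and triangles for replicates 1, 2 and 3. Only miR-206 separates the genotypes, with 5, 2 and 2 reads in R719W and 0 in each WT library, and the intervals of the 3 members overlap between the genotypes.

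The members were then set against miR-208a and miR-499, which are made by cardiomyocytes from introns of myosin genes, by their ratios inside each library. There were 11.6, 6.23 and 4.89 miR-1 reads per miR-208a read in R719W replicates 1, 2 and 3, and 5.78, 6.40 and 6.20 in WT replicates 1, 2 and 3. The WT libraries lay close together, and R719W replicates 1 and 3 lay on either side of them (mean log2 difference 0.21, exact permutation test, two-sided, p = 0.8, and −0.15 without R719W replicate 1). R719W replicate 1 had the lowest share of miR-208a, 4.05% of its reads, and the other R719W libraries had 7.97% and 8.15%, against 7.39% to 8.89% in WT.

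Against miR-208a, miR-133a was higher in each R719W library. There were 4.11, 3.07 and 4.08 miR-133a reads per 1000 miR-208a reads in R719W replicates 1, 2 and 3, and 2.90, 2.97 and 2.42 in WT replicates 1, 2 and 3. R719W replicate 2 lay just above the WT libraries. The mean log2 difference was 0.44 (exact permutation test, two-sided, p = 0.1, the smallest that 3 against 3 libraries can give, adjusted p = 0.2 over the 8 ratios).

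Against miR-499, both members were higher in each R719W library. There were 75.1, 59.4 and 61.0 miR-1 reads per miR-499 read in R719W replicates 1, 2 and 3, and 37.9, 34.2 and 43.0 in WT replicates 1, 2 and 3. The gap between the genotypes was larger than the spread within either. The mean log2 difference was 0.76 for miR-1 over miR-499 (exact permutation p = 0.1, adjusted p = 0.2). miR-133a reads per 100 miR-499 reads were 2.66, 2.93 and 5.10 in R719W and 1.90, 1.59 and 1.68 in WT, a mean log2 difference of 0.99 (exact permutation p = 0.1, adjusted p = 0.2). As background, the ratio of miR-1 to each of the 180 other tested miRNAs separated the genotypes for 33.9% of them, and was higher in R719W for 4.44%. For miR-133a these shares were 32.2% and 9.44%. miR-499 fell in R719W by the edgeR test, as given above, and these ratios use its reads. miR-208b was not among the ratios tested, and against it miR-133a was lower in each R719W library. There were 2308, 2503 and 3733 miR-208b reads per 1000 miR-133a reads in R719W replicates 1, 2 and 3, and 1810, 1661 and 1527 in WT. Per miR-1 read, miR-208b overlapped between the genotypes. The log2 fold change of miR-208b was 0.67 (SE 0.32, edgeR adjusted p = 0.156).

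**Figure D5:**
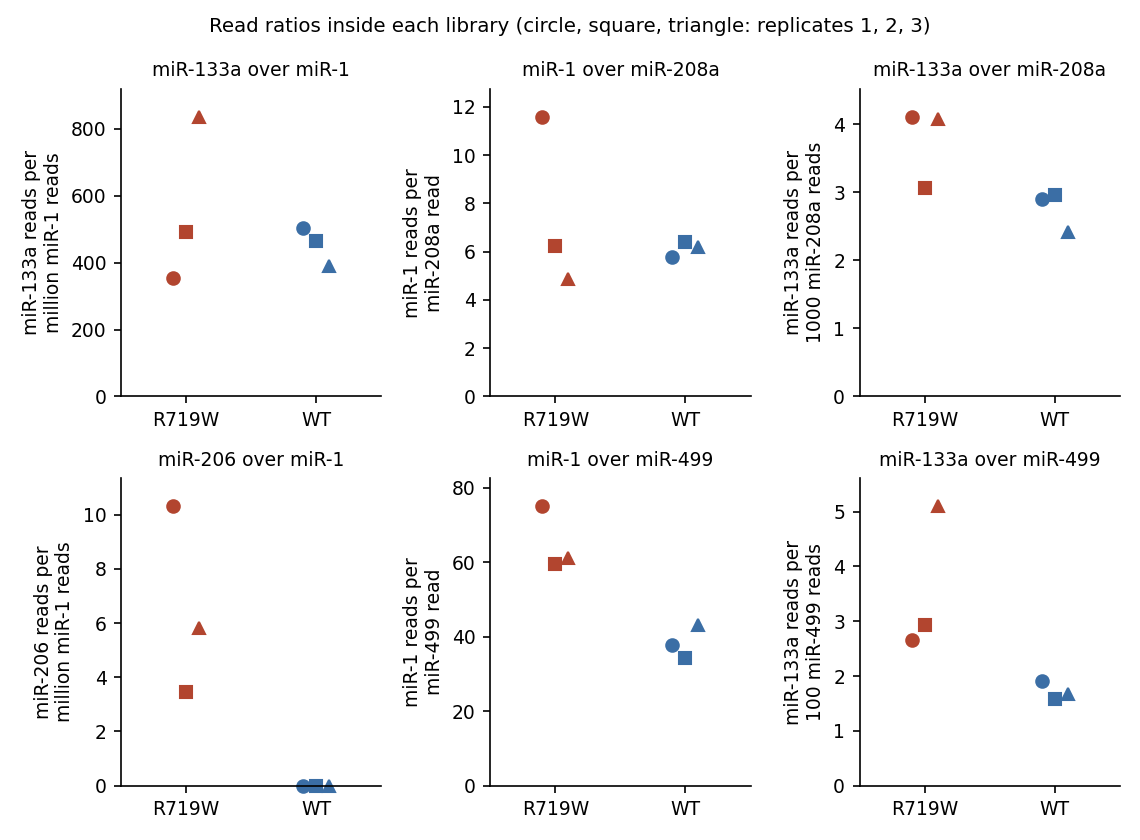
Reads of the first miRNA relative to the second inside each library, R719W left of WT, circles, squares and triangles for replicates 1, 2 and 3, with linear axes from 0. The genotypes overlap for miR-133a over miR-1 and for miR-1 over miR-208a, where R719W replicates 1 and 3 lie apart, and do not overlap in the other 4 panels.

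In order of mean TMM-normalised level, miR-1 was first among the tested miRNAs, followed by miR-208a at 61249 ± 16593 CPM in R719W and 91514 ± 19938 in WT (SD, n = 3). miR-133a was in place 74, between miR-10a at 233 ± 29.3 CPM in R719W and 254 ± 52.3 in WT and miR-27a at 246 ± 90.4 in R719W and 201 ± 46.7 in WT (SD, n = 3). These neighbours were picked for their closeness in level, and the SDs of all 3 overlap in both genotypes.

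The tested miRNAs whose reads stayed in the most constant proportion to a member were found from the SD of the log2 ratio over the 6 libraries. For miR-1 these were miR-106b (SD 0.16), miR-30b* (0.21), miR-322* (0.22), miR-145 (0.25) and miR-191 (0.27), with a median of 0.55 over all tested miRNAs. There were 0.293, 0.264 and 0.357 miR-106b reads per 1000 miR-1 reads in R719W replicates 1, 2 and 3, and 0.324, 0.315 and 0.282 in WT replicates 1, 2 and 3. For miR-133a the closest were miR-128 (0.08), miR-26a (0.11), miR-126-3p (0.15), miR-181a (0.16) and miR-149 (0.17), with a median of 0.50. There were 186, 185 and 181 miR-128 reads per 1000 miR-133a reads in R719W replicates 1, 2 and 3, and 161, 185 and 184 in WT replicates 1, 2 and 3. The 2 lists shared 0 miRNAs. miR-133a itself came in place 51 for miR-1 (SD 0.43), close to miR-208a in place 48 (0.42) and miR-499 in place 59 (0.45), while miR-208b came in place 153 (0.84). The lists depended on single libraries: without R719W replicate 1, only 1 of the 5 closest to miR-1 remained among the 5 closest. Read numbers limit them too. miR-128 had far fewer reads than miR-133a in each library, and miR-30b* was also among the less abundant tested miRNAs. The counting error of such small read numbers was not set beside these SDs. A low SD, picked as the smallest of many, can therefore be partly chance, and the order within the lists is uncertain.

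The shares of a library add up to its whole, so the lower mean share of miR-1 in R719W goes with a higher mean share of other miRNAs. Shares alone do not tell which of these changed. All miRNAs other than the 5 members took 53.1%, 50.3% and 60.2% of the reads in R719W replicates 1, 2 and 3, and 48.6%, 52.7% and 44.9% in WT replicates 1, 2 and 3. The non-members with the largest mean gains in share, named after their values were seen, were let-7i, let-7g and let-7f, of the let-7 family of growth-restraining miRNAs. let-7i took 5.38% ± 1.15 of the reads in R719W and 2.23% ± 0.707 in WT (SD, n = 3), and every R719W library was above every WT library. It was called (edgeR adjusted p = 0.0254). In TMM-normalised levels, where let-7i also separated the genotypes, 40.9% of the miRNAs tested did so. let-7g and let-7f overlapped between the genotypes and were not called (edgeR adjusted p = 0.236 for let-7g and 0.299 for let-7f). All entries with let-7 in their name, both arms included, were also summed. They took 20.4%, 11.8% and 13.5% in R719W replicates 1, 2 and 3, and 7.51%, 11.6% and 7.77% in WT replicates 1, 2 and 3. R719W replicate 3, with the lowest miR-1 share, did not have the highest let-7 share. The part of the let-7 reads in the miR-1 share was not tested.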

How the data were processed

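Small-RNA libraries of the left ventricle of 3 R719W and 3 WT mice were used. RNA isolation retained small RNAs and libraries were multiplexed, per the labels' protocols. The authors deposited 1 table per genotype with read counts per mature miRNA, whole numbers with no normalization, and a normalised value that equals CPM, the count per 1000000 reads on the 698 miRNAs of the list. The alignment was made with settings, annotation and build not given in the sources used here. Columns were matched to samples by the barcode in header and description. Every pair of libraries within a genotype differed by more than sampling noise (chi-square over degrees of freedom, 38.3 to 352).

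The test used edgeR 4.0.16 under R 4.3.3: filterByExpr (minimum count 10, total 15) kept 181 miRNAs and left 517 untested, TMM factors were 0.83 to 1.22, and glmQLFit and glmQLFTest compared R719W with WT (two-sided). Adjusted p-values are Benjamini-Hochberg values over the tested miRNAs. Standard errors follow from the fold change and the F statistic. Shares and log2 ratios within a library (0.5 read added) went into two-sided exact permutation tests. The edgeR step was tested on simulated data. Alternatives were DESeq2 1.42.0, other scalings and filters, other pseudocounts (1 or 0.1 read) and denominators, a replicate block, and each library left out in turn.

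The members, lists and partners of ratios were chosen with earlier results of these data known. The text names the 5 members, the myosin intron miRNAs, the 5 miRNAs closest to each tested member in proportion, the neighbours of each in level, and entries with a member's seed; other names are marked as chosen after their values were seen, apart from markers.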

Additional observations from a re-analysis of the deposited data

How the results depend on the processing

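The number of miRNAs called by edgeR over the whole table was 36. It was 22 with a filter of 100 reads in 3 libraries, and ranged from 4 to 56 when 1 library was left out: 56, 40 and 7 without R719W replicates 1, 2 and 3, and 4, 20 and 4 without WT replicates 1, 2 and 3. Calls higher and lower in R719W numbered 23 and 13 with TMM, 12 and 15 under DESeq2 size factors, 34 and 3 under library totals, 24 and 10 when totals excluded miR-1, and 12 and 16 by DESeq2's own test. With the replicate block 30 miRNAs were called. The labels do not tie same-numbered libraries to each other. Deviations of same-numbered libraries from their genotype means correlated at −0.18, −0.37 and −0.01 across miRNAs. Those of differently numbered libraries correlated at −0.26 to 0.37. With 3 libraries per genotype these correlations depend on each other, so they cannot decide whether the numbers pair the libraries. The block gave −0.38 for miR-1 and −0.15 for miR-133a, neither called.

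Over the 6 left-out libraries, the log2 fold change ranged from −0.55 to −0.25 for miR-1 and from −0.34 to −0.04 for miR-133a. miR-133a turned to 0.10 with library totals alone. The difference in share ranged from −7.87 to −2.93 points for miR-1 with miR-206, and also from −7.87 to −2.93 for all 5 members, and from −0.00234 to 0.00597 points for miR-133a with miR-133b, negative without R719W replicate 3. Among ratios, miR-133a over miR-1 ranged from −0.11 to 0.51 on the log2 scale, negative without R719W replicate 3, and miR-1 over miR-208a from −0.15 to 0.47, negative without R719W replicate 1. miR-133b over miR-133a, at −0.04, ranged from −1.15 to 0.71 and was 0.056 with 1 read added. The ratios whose genotypes did not overlap cannot change sign when a library is left out, and their differences were 2.37 to 3.07 for miR-206 over miR-1, 0.34 to 0.57 for miR-133a over miR-208a, 0.66 to 0.85 for miR-1 over miR-499 and 0.70 to 1.17 for miR-133a over miR-499, where 3 against 2 libraries allow no p below 0.2. miR-206 over miR-1 depends on the reads added, at 1.93 with 1 and 4.83 with 0.1. Of the 5 miRNAs closest in proportion, 1 to 5 remained for miR-1 and 3 to 4 for miR-133a when 1 library was left out, and 3 and 2 by deviations from the genotype mean. The cause of these changes was not tested. Depth limits miR-133a*, miR-133b and miR-206, which rest on 12, 8 and 9 reads over all libraries.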
